A study of Sus scrofa with 92 samples.

Results

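A set of 9 genes of innate sensing and NF-κB feedback was followed in pig liver. It holds the sensors NOD1, TLR2, TLR4 and CD14, the adaptor MYD88, the scaffold CARD10, and the feedback genes NFKBIA, TNFAIP3 and IRAK3. They were picked by gene symbol from a table of 25322 Ensembl pig genes, and all 9 were among the 13667 genes that passed the filter on low counts. MYD88 had a pair of identifiers, of which one held 64828 counts over the libraries used and the other held 0, and the first was taken.

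The libraries are poly-A RNA-seq of liver biopsies from 23 male juvenile Yorkshire-Landrace pigs, 18 Fasted (FS) and 5 Carbohydrate Prefed (CPF), each sampled at 4 time points. All 23 were fasted overnight, splenectomized, and put through blunt chest injury, hemorrhage, a liver crush and a period of limited resuscitation before full resuscitation, and the CPF pigs alone were given sugar syrup before anesthesia. Biopsies were taken at Baseline (B), after instrumentation and before injury, and during full resuscitation, at hour 2 (FR2), hour 8 (FR8) and hour 20 (FR20). The data used here hold no uninjured animals over the same hours, so time under anesthesia, repeated biopsy and injury cannot be told apart. The groups held 15 FS animals at B and 18 at each of FR2, FR8 and FR20, and 5 CPF animals at B, FR2 and FR20 and 4 at FR8. Of the animals, 3 FS and 2 CPF pigs died.

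Innate sensors recognize microbial or damage-derived molecules. NOD1 does so in the cytosol for fragments of bacterial peptidoglycan, TLR2 and TLR4 at the cell surface for lipoproteins and lipopolysaccharide, and CD14 hands ligands to both Toll-like receptors. Signals from the Toll-like receptors run through MYD88, those of some G protein-coupled receptors run through CARD10, and both lead to NF-κB. NF-κB in turn raises genes that restrain it, such as NFKBIA, whose protein IκBα holds NF-κB in the cytoplasm, TNFAIP3, whose protein A20 edits ubiquitin chains on signaling complexes, and IRAK3, an inactive kinase that blocks the MYD88 complex. In liver, hepatocytes, Kupffer cells and sinusoidal endothelium all carry parts of this system.

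Of the 92 deposited libraries, 88 were used, with total counts from 6877117 to 16613261 (median 12071957.5). Left out were the B libraries of FS animals 17, 19 and 21, which held 4, 899 and 5 counts of albumin (ALB), the main protein that hepatocytes secrete, and the FR8 library of CPF animal 3, which held 4388 counts in all. In the libraries used ALB was at 13200 to 168250 CPM (counts scaled to a common library size) by each library's own total. Several of these libraries went against their labels. Over 60 genes other than the 9 that differed most between animals, 85 of the 88 libraries correlated best with another library of their own animal. These genes were picked with the animal labels of the same libraries, which favours such agreement. The 85 are therefore not an independent check of the labels. The library labelled FR2 of FS animal 10 reached only r = −0.018 with the other libraries of its animal and 0.694 to 0.758 with the B, FR2 and FR8 libraries of CPF animal 13. The library labelled FR20 of CPF animal 13 reached at most 0.054 with its own animal and 0.682 to 0.908 with the B, FR8 and FR20 libraries of FS animal 10. The library labelled FR8 of FS animal 10 was closest to that same FR20 library (0.908). The libraries of FS animal 11 fell into pairs, FR2 with FR8 (0.995) and B with FR20 (0.864), with 0.146 to 0.185 between the pairs.

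The time labels were set against 500 genes that changed with time, again without the 9. Of the 88 libraries, 71 were closest to the mean of their own time point. In each of FS animals 17, 19 and 21, the library labelled FR2 was closest to FR8, the one labelled FR8 to B, and the one labelled FR20 to FR2. The other libraries nearest to another time were 3 of FS animal 10, the FR20 library of CPF animal 13, and 4 of FS animals 4, 9 and 20, which were kept in both sets of results. Results over all 88 libraries are therefore followed by those without the libraries of FS animals 10, 11, 17, 19 and 21 and CPF animal 13, called here the 6 animals. This leaves 67 libraries, from 13 FS animals at each time and from 4 CPF animals, 3 of them at FR8. The 6 animals were chosen after the data were seen, from genes other than the 9. The 500 genes were those with the smallest p for FS changes from B in these same libraries. Leaving out animals that depart from that time course can by itself strengthen the time changes of other genes, the 9 included. The second set of results is therefore not an independent check of the first.

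**Figure D1:**
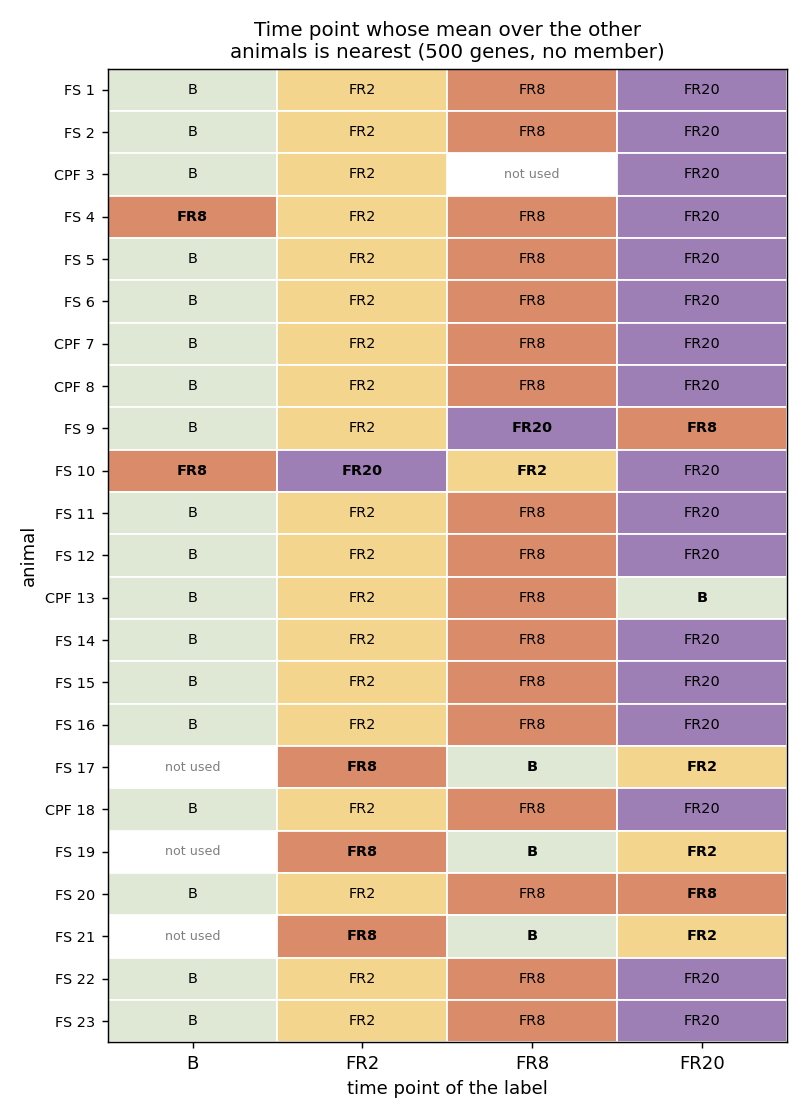
Time point whose mean each library was closest to, over 500 genes that leave out the 9. Rows are animals, columns are the labelled time points, colour gives the nearest time point, and bold marks the libraries whose nearest time point is not their label. Of the 88 libraries, 71 were closest to their own label, and animals 17, 19 and 21 show the same shift at FR2, FR8 and FR20.

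Levels are CPM scaled by trimmed mean of M values (TMM), a per-library scaling, so they compare a gene between libraries and not one gene with another. Changes are log2 fold changes from edgeR's quasi-likelihood F test with a term for each animal, and adjusted p is Benjamini-Hochberg over all genes tested. A gene is said to rise or fall where the adjusted p was under 0.05 and the log2 fold change was at least 1 in size. In whole biopsies, fewer cells of a type and less RNA per cell cannot be told apart. CPF values are listed in the order of animals 3, 7, 8, 13 and 18, with animal 3 missing at FR8.

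In FS liver, NOD1 and CARD10 rose by FR2 and stayed up through FR20, TLR2 and MYD88 rose at FR8, and TNFAIP3 fell at FR8. TLR4 was higher and CD14 lower by adjusted p alone, and IRAK3 did not pass the test at any time over all libraries. From B to FR2, 2 of the 9 genes rose, where 5.17% of all genes tested did. At FR8, 4 of the 9 rose and 1 fell, beside 4.44% and 7.39% of all genes. At FR20, 2 of the 9 were still up, beside 4.68%. By adjusted p alone, 6, 8 and 6 of the 9 differed from B at FR2, FR8 and FR20, against a background of 41.4%, 39.3% and 33.8%. The median log2 fold change at FR8 was 0.61 over the 9 genes beside −0.0016 over all genes tested.

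In CPF liver, NOD1 and CARD10 rose by FR2, TLR2, MYD88 and CARD10 were up at FR8 while NFKBIA and CD14 had fallen, and NFKBIA was down at FR20. These are 2 genes up at FR2 beside 1.47% of all genes, 3 up and 2 down at FR8 beside 3.7% and 5.14%, and 1 down at FR20 beside 0.454%. The median log2 fold change at FR8 was 0.52 over the 9 genes beside 0.036 over all genes tested.

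Leaving out the 6 animals kept every one of these calls against B and added 5. In FS liver NFKBIA was then also down at FR8 and FR20 and MYD88 up at FR20. In CPF liver TNFAIP3 was also down at FR8 and MYD88 up at FR20. The counts in FS were 2 up at FR2 (7.08% of all genes), 4 up and 2 down at FR8 (7.82% and 10.8%), and 3 up and 1 down at FR20 (6.59% and 5.93%). In CPF they were 2 up at FR2 (2.14%), 3 up and 3 down at FR8 (4.85% and 7.58%), and 1 up and 1 down at FR20 (3.65% and 4.43%). Both feeding groups share an estimate of the spread, so these CPF calls also depend on which FS animals were left out. Leaving out CPF animal 13 alone lost the CPF calls of NOD1 and CARD10 at FR2 and of CARD10 and NFKBIA at FR8. Without the 6 animals the CPF change of NOD1 at FR2 went from 2.30 ± 0.56 to 1.98 ± 0.44 (SE).

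**Figure D2:**
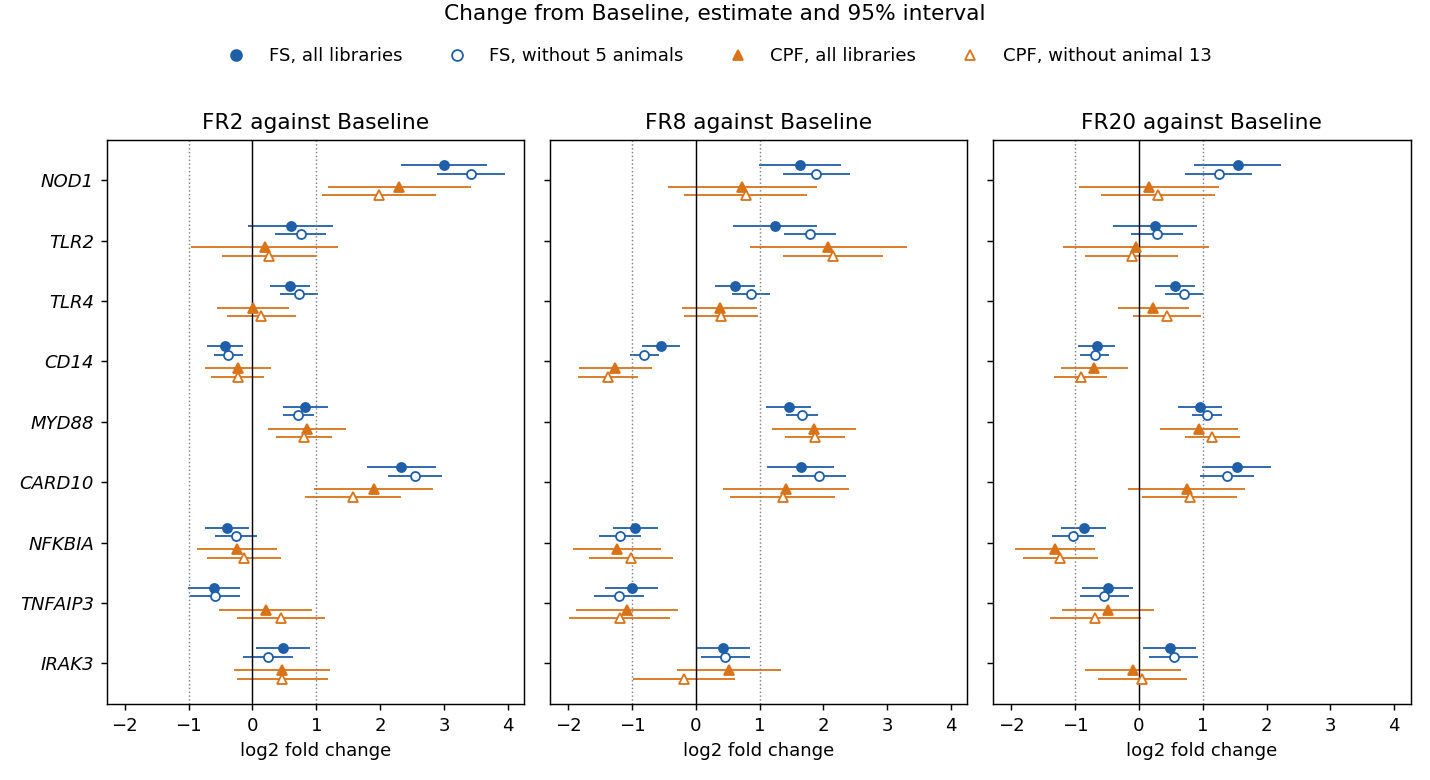
Log2 fold change from B of the 9 genes at FR2, FR8 and FR20 in FS and CPF liver, with 95% intervals from the edgeR fit. Filled symbols are all 88 libraries and open symbols leave out the 6 animals, and NOD1 at FR2 in FS, at 3.002, is the largest of the changes over all libraries.

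NOD1 (ENSSSCG00000016678) had the largest change of the 9. It ran in FS liver from 0.621 to 7.16 CPM (median 2.10) at B, 5.11 to 62.3 CPM (median 16.7) at FR2, 1.03 to 16.99 CPM (median 8.38) at FR8 and 2.95 to 13.7 CPM (median 5.50) at FR20. The level was lowest at B and highest at FR2, where the median lay above the highest B value. The log2 fold change from B was 3.002 ± 0.34 (SE, adjusted p = 1.25e-09) at FR2, an 8.01-fold rise seen in 14 of 15 animals. It was 1.63 ± 0.32 (SE, adjusted p = 5.34e-05) at FR8 and 1.55 ± 0.34 (SE, adjusted p = 2.75e-04) at FR20. The fall from FR2 to FR8 passed the test at −1.37 ± 0.28 (SE, adjusted p = 2.61e-04), whereas FR20 against FR8 did not, at −0.084 ± 0.30 (SE, adjusted p = 0.914), with 14 of 18 animals lower. That last step was −0.64 ± 0.24 (SE, adjusted p = 0.0391), past the adjusted p and under the fold threshold, when the 6 animals were left out.

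Leaving out the 6 animals narrowed the FS range of NOD1 at FR2 to 8.20 to 62.3 CPM (median 24.3), and FR2 then no longer overlapped B. The log2 fold change at FR2 became 3.43 ± 0.26 (SE, adjusted p = 2.37e-14). In CPF liver NOD1 was at 3.94, 5.24, 6.37, 6.38 and 1.67 CPM at B and 19.3, 20.6, 10.3, 55.2 and 15.5 CPM at FR2. All 5 animals rose and the groups did not overlap, with animal 13 far above the other 4 at FR2. The values at FR8 were 3.93, 11.4, 9.27 and 6.88 CPM and at FR20 6.35, 3.28, 6.70, 3.97 and 4.83 CPM. At FR8 all but animal 7 lay above the highest B value, and at FR20 all but animal 8 were back within the B range. The CPF log2 fold change was 2.30 ± 0.56 (SE, adjusted p = 0.0153) at FR2, 0.73 ± 0.59 (SE, adjusted p = 0.433) at FR8 and 0.16 ± 0.55 (SE, adjusted p = 0.920) at FR20. The FR2 call was lost when animal 3, 13 or 18 was left out on its own, with log2 fold changes of 2.00 to 2.57 over the 5 such fits.

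TLR2 (ENSSSCG00000009002), the lipoprotein receptor, peaked at FR8. In FS liver it spanned 6.68 to 19.5 CPM (median 9.46) at B, 0 to 53.7 CPM (median 13.6) at FR2, 0 to 50.0 CPM (median 28.4) at FR8 and 5.70 to 32.0 CPM (median 11.1) at FR20. The values of 0 at FR2 and FR8 were both from animal 11, whose libraries allow up to 0.363 and 0.267 CPM at a count of 0, and which was at 7.18 and 9.86 CPM at B and FR20. The FS log2 fold change was 0.60 ± 0.33 (SE, adjusted p = 0.144) at FR2, 1.25 ± 0.33 (SE, adjusted p = 0.00177) at FR8 and 0.25 ± 0.33 (SE, adjusted p = 0.584) at FR20. Only the FR8 value passed the test, with 13 of 15 animals higher. With the 6 animals left out the FR8 range was 7.20 to 50.0 CPM (median 34.6) and the FR8 change 1.79 ± 0.20 (SE, adjusted p = 1.66e-10). TLR2 then also rose from FR2 to FR8, at 1.04 ± 0.20 (SE, adjusted p = 1.36e-05), and fell from FR8 to FR20, at −1.51 ± 0.20 (SE, adjusted p = 7.55e-07). Over all libraries the first step was 0.65 ± 0.31 (SE, adjusted p = 0.105), and the second was just short of the fold threshold (adjusted p = 0.0405).

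The CPF animals also had their highest TLR2 levels at FR8. They were at 11.9, 8.34, 12.9, 8.96 and 6.29 CPM at B, 18.5, 8.40, 11.2, 8.18 and 9.14 CPM at FR2, 36.1, 56.6, 30.2 and 30.4 CPM at FR8 and 8.51, 8.63, 12.6, 10.3 and 6.02 CPM at FR20. The FR8 values lay above every value of the other time points. The CPF change was 2.08 ± 0.61 (SE, adjusted p = 0.0186) at FR8, a 4.23-fold rise in all 4 animals whose call was lost without animal 7, 8 or 18, beside 0.19 ± 0.57 (SE, adjusted p = 0.886) at FR2 and −0.046 ± 0.57 (SE, adjusted p = 0.978) at FR20. From FR2 to FR8 TLR2 rose by 1.89 ± 0.62 (SE, adjusted p = 0.0485), a call that was lost when any 1 of the 5 CPF animals was left out.

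TLR4 (ENSSSCG00000005503), the lipopolysaccharide receptor, moved less. Its FS range was 3.19 to 14.9 CPM (median 7.61) at B, 6.97 to 16.6 CPM (median 10.7) at FR2, 2.90 to 18.8 CPM (median 11.8) at FR8 and 6.63 to 16.9 CPM (median 10.8) at FR20. The groups overlapped at every time, and the 3 later groups lay close together. The FS log2 fold changes were 0.59 ± 0.16 (SE, adjusted p = 0.00213) at FR2, 0.61 ± 0.16 (SE, adjusted p = 0.00131) at FR8 and 0.56 ± 0.16 (SE, adjusted p = 0.00395) at FR20. They passed the adjusted p and not the fold threshold, over all libraries and without the 6 animals, where they were 0.73, 0.87 and 0.71. In CPF liver TLR4 was at 6.71, 5.50, 10.1, 10.998 and 6.798 CPM at B, 10.4, 4.85, 7.29, 7.92 and 9.27 CPM at FR2, 7.67, 14.5, 12.5 and 6.88 CPM at FR8 and 8.06, 5.44, 16.1, 7.11 and 10.97 CPM at FR20. No CPF change passed the test, with 0.011 ± 0.28 (SE, adjusted p = 0.990) at FR2, 0.37 ± 0.30 (SE, adjusted p = 0.424) at FR8 and 0.22 ± 0.28 (SE, adjusted p = 0.737) at FR20.

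CD14 (ENSSSCG00000014369), the co-receptor that binds lipopolysaccharide for TLR4, was lower at FR8, when TLR2 was higher. FS liver had it at 618 to 1487 CPM (median 974) at B, 303 to 1195 CPM (median 759.8) at FR2, 338 to 1382 CPM (median 694) at FR8 and 448 to 946 CPM (median 649.9) at FR20. The ranges overlapped throughout, and over all libraries the medians went down at each step. The medians without the 6 animals were 974, 769, 572 and 641 CPM, lowest at FR8. The FS log2 fold changes, −0.43 ± 0.14 (SE, adjusted p = 0.0125) at FR2, −0.54 ± 0.15 (SE, adjusted p = 0.00236) at FR8 and −0.66 ± 0.14 (SE, adjusted p = 2.67e-04) at FR20, passed the adjusted p and not the fold threshold, with 14 of 15 animals lower at FR8. Leaving out the 6 animals gave −0.80 ± 0.11 (SE, adjusted p = 5.22e-08) at FR8, also under that threshold. In the CPF animals CD14 was at 1160.2, 1108, 964, 1068 and 1262 CPM at B, 942, 908, 832, 907 and 1155 CPM at FR2, 546, 312, 583 and 494 CPM at FR8 and 644, 990.0, 292, 1121 and 604 CPM at FR20. All 4 FR8 values lay below every B and FR2 value. The CPF change was −0.23 ± 0.26 (SE, adjusted p = 0.654) at FR2, −1.26 ± 0.29 (SE, adjusted p = 0.00386) at FR8 and −0.70 ± 0.26 (SE, adjusted p = 0.160) at FR20. From FR2 to FR8 CD14 fell by 1.03 ± 0.28 (SE, adjusted p = 0.0221) on the log2 scale, a call lost when animal 7, 8, 13 or 18 was left out.

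MYD88 (ENSSSCG00000011251), the adaptor shared by TLR2, TLR4 and the IL-1 receptor, rose in both feeding groups at FR8. It ran in FS liver from 15.7 to 70.2 CPM (median 27.0) at B, 36.6 to 96.4 CPM (median 52.0) at FR2, 24.4 to 132 CPM (median 94.9) at FR8 and 42.8 to 75.7 CPM (median 59.0) at FR20. FR8 held both the highest median and the widest range, and its lowest value, from animal 21, was below the B median. The log2 fold change was 0.82 ± 0.18 (SE, adjusted p = 1.60e-04) at FR2, 1.46 ± 0.18 (SE, adjusted p = 1.23e-07) at FR8 and 0.96 ± 0.17 (SE, adjusted p = 1.87e-05) at FR20. MYD88 was higher at FR8 in 14 of 15 animals, and the FR2 and FR20 values missed the fold threshold. Without those 6 animals the FS range at FR8 was 59.8 to 126 CPM (median 96.5), and the changes became 1.67 ± 0.12 (SE, adjusted p = 7.23e-16) at FR8 and 1.07 ± 0.12 (SE, adjusted p = 3.76e-10) at FR20. The step from FR8 to FR20 was −0.50 ± 0.16 (SE, adjusted p = 0.0455) over all libraries.

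In CPF liver MYD88 was at 31.9, 28.5, 24.2, 25.5 and 23.99 CPM at B, 58.4, 38.0, 34.5, 50.2 and 64.0 CPM at FR2, 91.1, 92.2, 82.7 and 103 CPM at FR8 and 67.5, 54.9, 62.2, 23.6 and 55.9 CPM at FR20. No FR2 or FR8 value reached down into the B range, and the library labelled FR20 of animal 13 alone lay below it. The changes were 0.86 ± 0.31 (SE, adjusted p = 0.0978) at FR2, 1.85 ± 0.33 (SE, adjusted p = 8.35e-04) at FR8 and 0.94 ± 0.31 (SE, adjusted p = 0.106) at FR20. The FR8 rise was 3.61-fold and was kept when any 1 CPF animal was left out. With the 6 animals left out, CPF animal 13 among them, the FR20 change was 1.15 ± 0.22 (SE, adjusted p = 1.57e-04).

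CARD10 (ENSSSCG00000025260), a scaffold that joins BCL10 and MALT1 into a complex that activates NF-κB, had the time course most like that of NOD1 among the 9. FS liver had it at 1.24 to 13.5 CPM (median 3.51) at B, 7.59 to 48.2 CPM (median 17.8) at FR2, 1.28 to 21.4 CPM (median 13.7) at FR8 and 5.63 to 13.5 CPM (median 10.9) at FR20. The FS median was highest at FR2 and went down at each later time without returning to that of B. The log2 fold change was 2.33 ± 0.27 (SE, adjusted p = 2.18e-09) at FR2, 1.64 ± 0.26 (SE, adjusted p = 2.29e-06) at FR8 and 1.54 ± 0.27 (SE, adjusted p = 1.12e-05) at FR20. It was up in 14 of 15, 15 of 15 and 13 of 15 animals. The step from FR2 to FR8, −0.69 ± 0.23 (SE, adjusted p = 0.0207), missed the fold threshold. Leaving out the 6 animals gave 2.54 ± 0.21 (SE, adjusted p = 1.74e-13) at FR2, 1.93 ± 0.21 (SE, adjusted p = 8.11e-11) at FR8 and 1.38 ± 0.21 (SE, adjusted p = 5.42e-07) at FR20, and the FR2 range of 11.2 to 48.2 CPM (median 22.8) then lay above that of B.

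The CPF animals had CARD10 at 4.58, 7.56, 4.87, 4.34 and 2.95 CPM at B, 10.1, 19.7, 9.65, 32.4 and 21.2 CPM at FR2, 7.58, 20.2, 13.2 and 12.9 CPM at FR8 and 8.74, 8.72, 8.68, 6.003 and 8.40 CPM at FR20. FR2 and FR8 did not overlap B. The CPF changes were 1.90 ± 0.47 (SE, adjusted p = 0.0160) at FR2, 1.41 ± 0.49 (SE, adjusted p = 0.0451) at FR8 and 0.75 ± 0.46 (SE, adjusted p = 0.421) at FR20. The FR2 call was lost when animal 13 or 18 was left out, and the FR8 call when animal 3, 8, 13 or 18 was.

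NFKBIA (ENSSSCG00000001952), which encodes the IκBα that NF-κB itself switches on, was lower late in resuscitation. FS liver had it at 42.8 to 133 CPM (median 83.0) at B, 27.5 to 134 CPM (median 53.2) at FR2, 17.5 to 84.7 CPM (median 42.3) at FR8 and 26.8 to 114 CPM (median 38.3) at FR20. The ranges overlapped, and the medians at FR8 and FR20 were close to each other. The log2 fold change was −0.40 ± 0.17 (SE, adjusted p = 0.0609) at FR2, −0.95 ± 0.18 (SE, adjusted p = 2.23e-05) at FR8 and −0.87 ± 0.18 (SE, adjusted p = 1.07e-04) at FR20. Both later values missed the fold threshold by little, with NFKBIA lower in 14 of 15 and 15 of 15 animals. They passed it when the 6 animals were left out, at −1.19 ± 0.16 (SE, adjusted p = 1.90e-08) and −1.04 ± 0.16 (SE, adjusted p = 7.52e-07). FR20 against FR8 was 0.082 ± 0.16 (SE, adjusted p = 0.835), within the spread.

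In CPF liver NFKBIA was at 62.1, 56.4, 88.01, 106 and 66.8 CPM at B, 36.5, 69.5, 93.8, 68.6 and 53.0 CPM at FR2, 31.8, 28.2, 26.0 and 47.7 CPM at FR8 and 30.2, 20.2, 32.6, 35.1 and 32.9 CPM at FR20. All FR8 and FR20 values were below the lowest B value. NFKBIA fell by 1.23 ± 0.35 (SE, adjusted p = 0.0144) on the log2 scale at FR8 and by 1.32 ± 0.32 (SE, adjusted p = 0.0274) at FR20, while FR2 was −0.24 ± 0.31 (SE, adjusted p = 0.698). The FR8 call was lost without animal 8 or 13 and the FR20 call without animal 3, 7, 8 or 18. Both were made when the 6 animals were left out, at −1.01 ± 0.33 (SE, adjusted p = 0.0219) and −1.23 ± 0.29 (SE, adjusted p = 0.00261).

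TNFAIP3 (ENSSSCG00000004154), which encodes A20, was lowest at FR8. In FS liver it was at 7.34 to 25.0 CPM (median 16.5) at B, 4.53 to 24.4 CPM (median 10.4) at FR2, 4.72 to 17.5 CPM (median 7.61) at FR8 and 5.27 to 18.7 CPM (median 11.4) at FR20. It was lower at FR8 than at B in 15 of 15 animals. The log2 fold change was −0.60 ± 0.20 (SE, adjusted p = 0.0136) at FR2, −1.002 ± 0.21 (SE, adjusted p = 8.94e-05) at FR8 and −0.49 ± 0.20 (SE, adjusted p = 0.0511) at FR20. The FR8 value sat at the fold threshold. Over the 18 fits that left out 1 FS animal it ran from −1.07 to −0.93, and it fell short of the threshold in 10 of them. Without the term for the animal it was −0.9997, under the threshold. Without the libraries of the 6 animals it was −1.20 ± 0.19 (SE, adjusted p = 7.92e-07). From FR8 to FR20 TNFAIP3 was 0.51 ± 0.19 (SE, adjusted p = 0.0932), with 16 of 18 animals higher.

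The CPF animals had TNFAIP3 at 10.1, 13.6, 30.4, 13.2 and 12.1 CPM at B, 11.5, 29.2, 42.7, 4.52 and 9.02 CPM at FR2, 6.03, 9.79, 7.19 and 7.499 CPM at FR8 and 7.72, 4.97, 12.7, 13.8 and 12.5 CPM at FR20. The spread at FR2 was wide, with animals 7 and 8 above the other 3, and every FR8 value was below the lowest B value. The CPF changes from B were 0.20 ± 0.36 (SE, adjusted p = 0.795) at FR2, −1.07 ± 0.40 (SE, adjusted p = 0.0600) at FR8 and −0.48 ± 0.36 (SE, adjusted p = 0.534) at FR20, and none passed the test. Between FR2 and FR8 it fell by 1.28 ± 0.41 (SE, adjusted p = 0.0434) on the log2 scale, and this call was lost when any 1 of the 5 CPF animals was left out. With the 6 animals left out, FR8 against B passed at −1.19 ± 0.40 (SE, adjusted p = 0.0255).

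IRAK3 (ENSSSCG00000000475), the inactive kinase of the MYD88 complex, had the fewest counts of the 9, 3269 over the 88 libraries. In FS liver it was at 0.854 to 8.18 CPM (median 1.91) at B, 1.24 to 7.15 CPM (median 2.47) at FR2, 0.465 to 6.07 CPM (median 2.38) at FR8 and 0.183 to 6.23 CPM (median 2.86) at FR20. The lowest values, from animal 19 at FR8 and FR20, rested on 4 and 2 counts. Over all libraries none of the FS changes passed the test, at 0.47 ± 0.21 (SE, adjusted p = 0.0662) at FR2, 0.43 ± 0.21 (SE, adjusted p = 0.0931) at FR8 and 0.49 ± 0.21 (SE, adjusted p = 0.0635) at FR20. The interval at FR8, 0.014 to 0.85 (95%), did not reach 0 and stayed under a 2-fold change, but the adjusted p did not pass. Leaving out the 6 animals gave 0.46 ± 0.19 (SE, adjusted p = 0.0375) at FR8 and 0.55 ± 0.19 (SE, adjusted p = 0.0173) at FR20, both past the adjusted p and under the fold threshold. In CPF liver IRAK3 was at 3.09, 3.44, 2.15, 3.39 and 0.770 CPM at B, 2.96, 2.72, 3.39, 4.09 and 3.01 CPM at FR2, 2.10, 2.35, 10.6 and 1.34 CPM at FR8 and 2.496, 4.13, 1.79, 1.48 and 1.38 CPM at FR20. Animal 13 at FR8 stood above every other CPF library. The CPF change at FR8 was 0.52 ± 0.41 (SE, adjusted p = 0.418), and without the 6 animals it was −0.18 ± 0.40 (SE, adjusted p = 0.802).

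**Figure D3:**
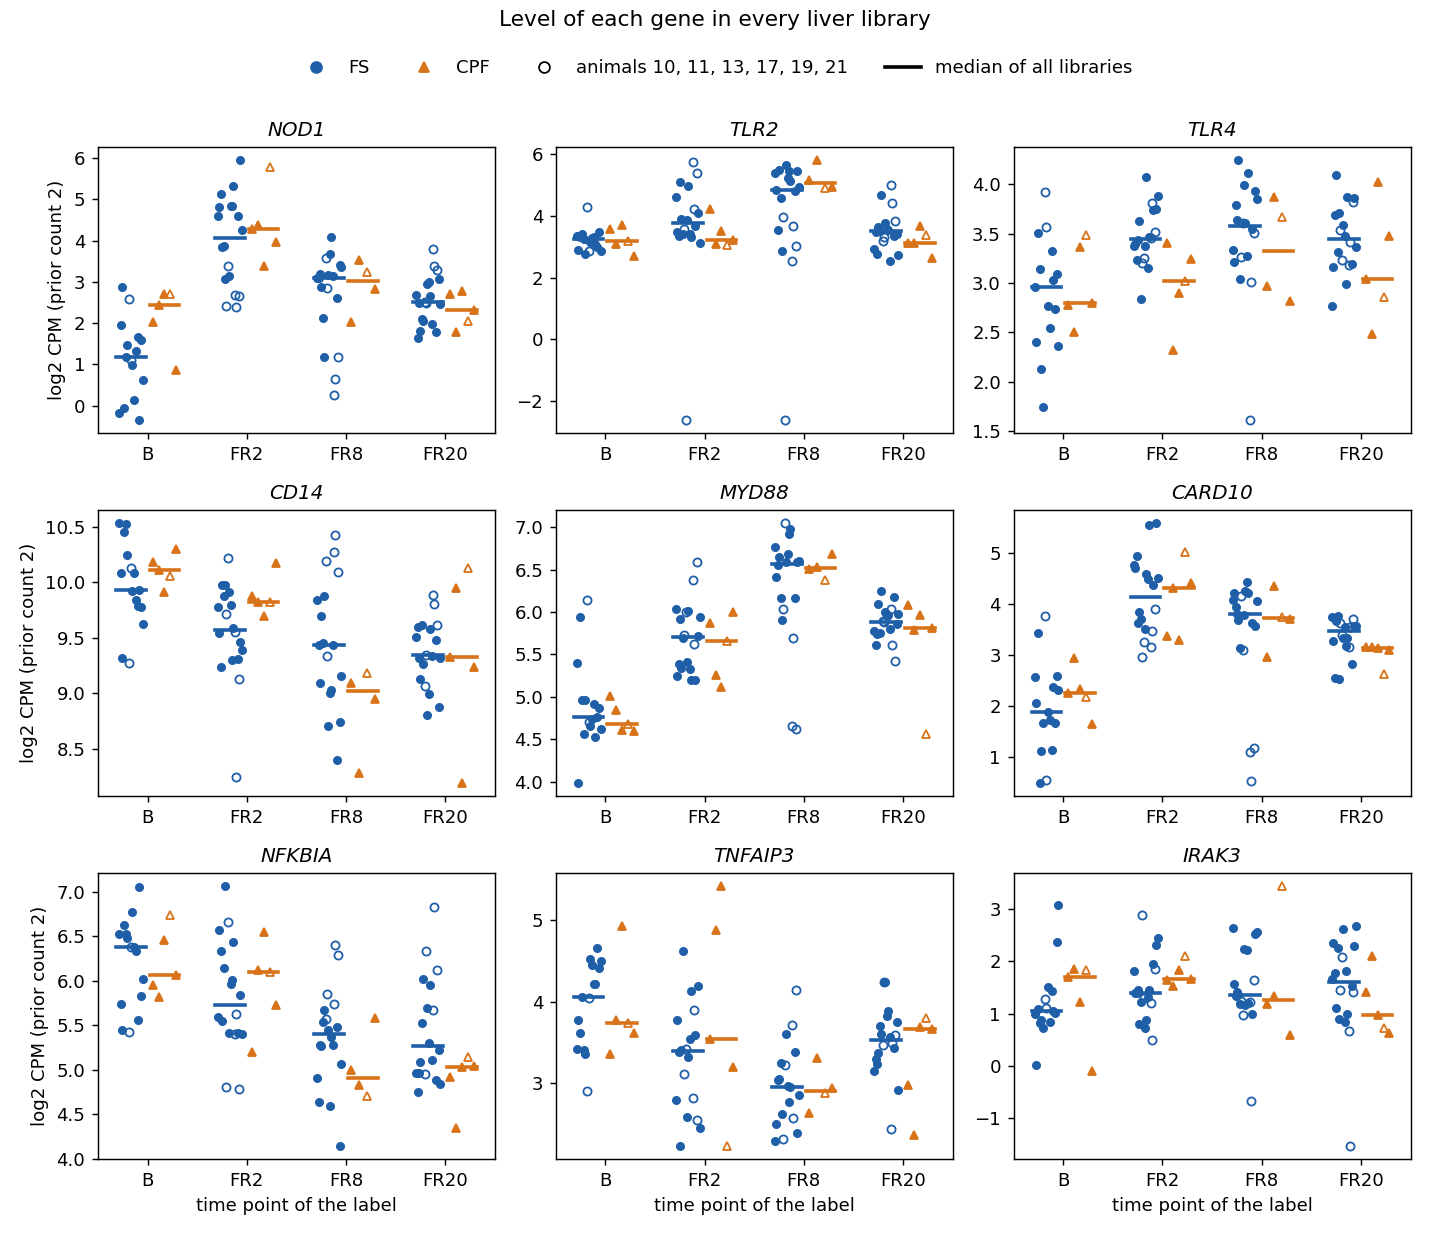
Level of each of the 9 genes in every library, as log2 TMM-scaled CPM with a prior count of 2, by time point, with FS and CPF side by side and a bar at each group's median. Open symbols are libraries of the 6 animals, among them the 0 counts of TLR2 in animal 11, and NOD1 and CARD10 lie mostly above their B values at FR2 in both feeding groups.

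Over all libraries, fewer of the 9 were called in FS liver between successive resuscitation times than against B. In CPF liver 3 were called from FR2 to FR8, beside 2 at FR2, 5 at FR8 and 1 at FR20 against B. From FR2 to FR8 in FS liver NOD1 alone was called, lower, beside 3.43% of all genes, and 4 of the 9 passed the adjusted p alone, beside 28.4%. Leaving out the 6 animals made it 1 up (TLR2, beside 8.01%) and 1 down (NOD1, beside 7.65%). In CPF liver TLR2 rose and CD14 and TNFAIP3 fell from FR2 to FR8, beside 2.57% and 2.36% of all genes, and 2 rose and 2 fell without the 6 animals, beside 4.01% and 5.11%. MYD88 was the gene added, at 1.06 ± 0.23 (SE, adjusted p = 0.00140).

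From FR8 to FR20, edgeR's quasi-likelihood test called 0 of the 9 in FS liver, beside 1.46% of all genes. At an unadjusted p under 0.05 there were 3 of the 9, beside 2962 of all 13667 genes tested. Adjusted p alone gave 2, TLR2 and MYD88, beside 6.39%. In CPF liver the quasi-likelihood test called 0, beside 0.022%. There 2 of the 9 were at an unadjusted p under 0.05, beside 1484 of all 13667 genes tested. DESeq2 called 0 in both, and limma voom called 1 in each. Without the 6 animals TLR2 fell in both feeding groups, by 1.51 ± 0.20 (SE, adjusted p = 7.55e-07) in FS and 2.27 ± 0.39 (SE, adjusted p = 0.00130) in CPF on the log2 scale, beside 0.944% and 0.217% of all genes.

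Whether prefeeding altered these changes was tested as the CPF change minus the FS change. None of the 9 passed at FR2, FR8 or FR20, where 0%, 0% and 0% of all genes did by edgeR, and DESeq2 and limma voom also called 0 of the 9. At an unadjusted p under 0.05 there were 0 at FR2, 1 at FR8 (CD14) and 1 at FR20 (NOD1). Of all 13667 genes tested, 397, 468 and 521 were at such a p at FR2, FR8 and FR20. The CD14 difference was −0.71 ± 0.32 (SE, adjusted p = 0.999), with a 95% interval −1.35 to −0.079. For NOD1 it was −1.39 ± 0.65 (SE, adjusted p = 1.00) at FR20, with a 95% interval −2.69 to −0.09. With the 6 animals left out edgeR also called 0 of the 9, with 3, 2 and 0 at an unadjusted p under 0.05 at FR2, FR8 and FR20. How many of all genes were at such a p was not counted in the fits without the 6 animals. At FR2 the differences were then −1.45 ± 0.51 (SE, adjusted p = 0.515) for NOD1, with a 95% interval −2.47 to −0.43, 1.04 ± 0.40 (SE, adjusted p = 0.537) for TNFAIP3, with a 95% interval 0.25 to 1.84, and −0.97 ± 0.42 (SE, adjusted p = 0.620) for CARD10, with a 95% interval −1.82 to −0.12. At FR8 they were −1.11 ± 0.55 (SE, adjusted p = 0.927) for NOD1 and −0.57 ± 0.25 (SE, adjusted p = 0.911) for CD14. None of these adjusted p values passed. The intervals are wide. That of TLR2 at FR8, −0.54 to 2.20, includes a change more than 2-fold larger in CPF than in FS.

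The levels themselves were set against each other, CPF against FS, at each time point. edgeR called 0 of the 9 at B, FR2, FR8 and FR20, beside 0.0257%, 0%, 0% and 0% of all genes, and DESeq2 and limma voom called 0 as well. Over all genes tested, 895 of 11688 were at an unadjusted p under 0.05 at B, 664 of 11892 at FR2, 618 of 11951 at FR8 and 400 of 12307 at FR20. The counts among the 9 were 1 at B (NOD1), 2 at FR2 (TLR4 and TNFAIP3), 0 at FR8 and 1 at FR20 (NFKBIA). Their CPF minus FS log2 differences were 0.90 ± 0.43 (SE, adjusted p = 0.647) for NOD1, −0.49 ± 0.19 (SE, adjusted p = 0.874) for TLR4, 0.83 ± 0.37 (SE, adjusted p = 0.885) for TNFAIP3 and −0.67 ± 0.29 (SE, adjusted p = 1.00) for NFKBIA. Without the 6 animals edgeR again called 0 at each time, and TLR4 and TNFAIP3 at FR2 were the only ones at an unadjusted p under 0.05.

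Animals that later died (3 FS and 2 CPF) were set against those that lived, with a term for the feeding group. edgeR called 0 of the 9 at B, FR2, FR8 and FR20, beside 0%, 0%, 0% and 0% of all genes. At an unadjusted p under 0.05 there were 0 at B, 2 at FR2 (MYD88 and TNFAIP3), 0 at FR8 and 2 at FR20 (NOD1 and NFKBIA). Over all genes tested, 998 of 11688 were at such a p at B, 656 of 11892 at FR2, 265 of 11951 at FR8 and 642 of 12307 at FR20. The died minus lived log2 difference at FR2 was −0.65 ± 0.18 (SE, adjusted p = 0.567) for MYD88 and 1.07 ± 0.37 (SE, adjusted p = 0.695) for TNFAIP3. TNFAIP3 there was the only call that limma voom made among the 9, and DESeq2 made none. At FR20 the differences were −0.69 ± 0.31 (SE, adjusted p = 0.904) for NOD1 and −0.62 ± 0.28 (SE, adjusted p = 0.904) for NFKBIA. Without the 6 animals edgeR also called 0, with MYD88 and TNFAIP3 at FR2 and NOD1 at FR20 at an unadjusted p under 0.05.

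The 9 genes did not move as one. Over the 88 libraries, which share the time course, the 36 pairs had Pearson correlations of log2 CPM, centred on each animal's mean, from −0.69 (CD14 with MYD88) to 0.89 (NOD1 with CARD10), with a median of 0.059 and 18 above 0. MYD88 was also at −0.68 with TNFAIP3 and −0.67 with NFKBIA. These are descriptions of libraries that share animals and time points.

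**Figure D4:**
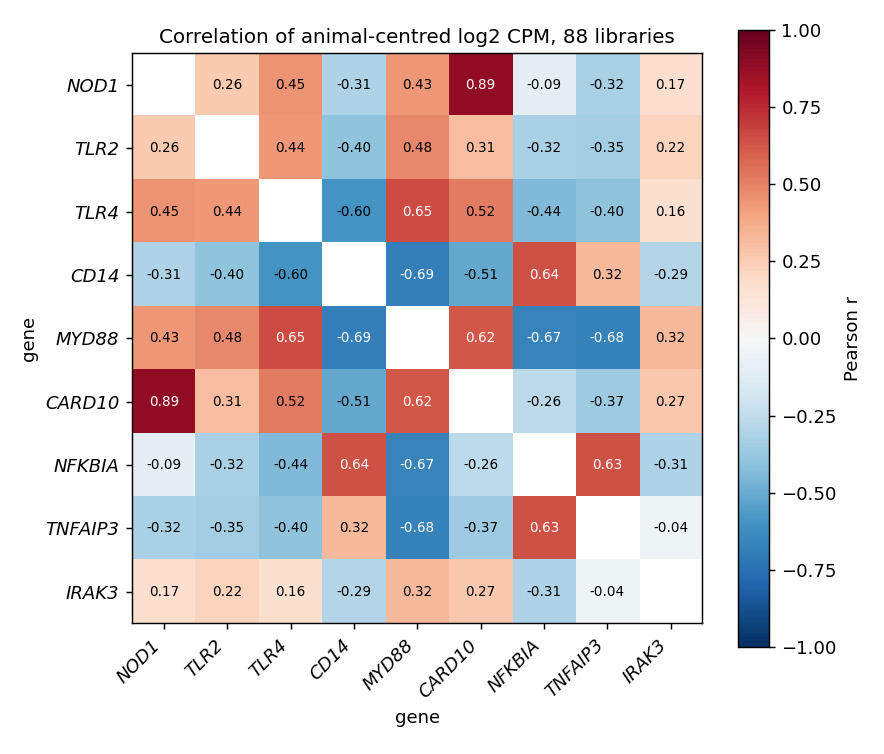
Pearson correlation of log2 CPM, centred on the mean of each animal, over the 88 libraries for each pair of the 9 genes. The 36 pairs run from −0.69 (CD14 with MYD88) to 0.89 (NOD1 with CARD10).

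Among 7792 other genes with a symbol, those whose animal-centred log2 CPM followed each member most closely over the 88 libraries were ARF6 (r = 0.91) and CYTH4 (0.91) for NOD1, NNMT (0.87) and HYOU1 (0.85) for TLR2, and PRPF3 (0.72) and HSPA4 (0.71) for TLR4. For CD14 they were MGMT (0.90) and FH (0.89), for MYD88 HNRNPM (0.94) and HID1 (0.90), and for CARD10 SH3BP2 (0.89) and KRT8 (0.89). NFKBIA was closest to MMP11 (0.83) and to BCL10 (0.81), TNFAIP3 to CLCN6 (0.70) and PER2 (0.70), and IRAK3 to ZNF148 (0.65) and R3HDM1 (0.58). BCL10 is the partner of CARD10 in its complex.

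The rest of the pathway was read from a list of 96 other sensors, adaptors, NF-κB subunits, inhibitors and targets, of which 68 had an identifier and 64 were tested. In FS liver 4 rose and 1 fell at FR2, 2 rose and 4 fell at FR8, and 1 rose and 3 fell at FR20. The 4 and 1 at FR2 are 6.25% higher (all genes 5.17%) and 1.56% lower (all genes 5.85%). At FR8 the shares were 3.12% higher (all genes 4.44%) and 6.25% lower (all genes 7.39%). At FR20 they were 1.56% higher (all genes 4.68%) and 4.69% lower (all genes 5.25%). In CPF liver 2 rose and 0 fell at FR2, 3 rose and 3 fell at FR8, and 1 rose and 0 fell at FR20. The CPF shares were 3.12% higher (all genes 1.47%) and 0% lower (all genes 0.937%) at FR2. They were 4.69% higher (all genes 3.7%) and 4.69% lower (all genes 5.14%) at FR8, and 1.56% higher (all genes 0.249%) and 0% lower (all genes 0.454%) at FR20. The list's median log2 fold changes in FS were 0.19, −0.068 and 0.018, beside −0.043, −0.0016 and 0.042 over all genes. Without the 6 animals the FS counts were 9 up and 0 down at FR2, 6 and 4 at FR8, and 2 and 5 at FR20, and the CPF counts were 4 and 0, 4 and 3, and 4 and 3. Over all genes tested, 7.08% and 8.18% were up and down in FS at FR2, 7.82% and 10.8% at FR8 and 6.59% and 5.93% at FR20 in that fit, and 2.14% and 1.7%, 4.85% and 7.58% and 3.65% and 4.43% in CPF. From FR2 to FR8, over all libraries, 0 of the 64 rose in FS (all genes 2.52%) and 8 fell, 12.5% (all genes 3.43%). In CPF 1 rose, 1.56% (all genes 2.57%), and 5 fell, 7.81% (all genes 2.36%). From FR8 to FR20, 0 rose and 1 fell in FS, 1.56% (all genes 0.278%), and none was called in CPF.

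Those that did pass against B are named by role. Among the sensors, LBP, the plasma protein that passes lipopolysaccharide to CD14, rose at FR8 by 1.499 ± 0.25 (SE) in FS and 1.97 ± 0.46 in CPF on the log2 scale, and at FR20 by 1.03 ± 0.25 in FS. TLR6, the partner of TLR2, rose at FR8 by 1.32 ± 0.45 in CPF. CD180, a TLR4-like receptor of B cells, changed by −1.07 ± 0.33 in CPF at FR8. RIPK2, the kinase that NOD1 recruits, rose by 1.07 ± 0.31 in CPF at FR2, and CASP1, the inflammasome protease, changed by −1.04 ± 0.27 in FS at FR2, or by −0.92 without the 6 animals, under the fold threshold. Among adaptors, TRAF2, which relays signals from TNF receptors, rose by 1.07 ± 0.16 in FS at FR2.

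Of the inhibitors, BCL3, a nuclear IκB family member, rose in FS by 1.46 ± 0.30 at FR2 and 1.67 ± 0.29 at FR8, and in CPF by 1.84 ± 0.54 at FR8. ITCH, a ubiquitin ligase that works with A20, rose in FS by 1.24 ± 0.14 at FR2 in all 15 animals. DUSP1, a phosphatase of MAP kinases, changed in FS by −1.36 ± 0.31 at FR8 and −1.15 ± 0.32 at FR20. Among the scaffold partners, which are not inhibitors, BCL10, which CARD10 binds, changed in the direction opposite to CARD10. The BCL10 change was −1.68 ± 0.26 at FR8 and −1.37 ± 0.26 at FR20 in FS and −2.13 ± 0.50 at FR8 in CPF. Of the targets, GADD45B, a stress response gene, changed in FS by −2.62 ± 0.52 at FR8 and −3.11 ± 0.54 at FR20 and in CPF by −3.09 ± 0.98 at FR8. PTGS2, the inducible cyclooxygenase, rose in CPF by 2.32 ± 0.66 at FR2. Of these, all but CASP1 kept their calls without the 6 animals. The remaining genes called against B lie outside the rule for named genes and were picked after their values were seen. They were RIPK2 in FS at FR2 (1.00 ± 0.18), the chemokine CXCL2 in FS at FR8 (−1.14 ± 0.46) and TLR6 in CPF at FR20 (1.77 ± 0.42). The CXCL2 call was lost without the 6 animals, and its mean over all FS libraries was low, 1.523 CPM at B and 0.7541 at FR8.

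Markers of the cells a biopsy can hold were measured beside these changes. Summed CPM of 6 of 7 hepatocyte markers had medians of 179130 at B, 128140 at FR2, 77208 at FR8 and 44349 at FR20 in FS, and ALB, TF and TTR, 3 of the 6, fell at FR8 and at FR20 while FGB rose at FR8. In CPF, ALB and TTR fell at FR8, and ALB, TF and TTR at FR20. The part of these shifts in the changes of the 9 genes was not tested. Of 12 markers of Kupffer cells and macrophages, 6 were tested, led by C1QA, MRC1 and CD68, while CD163, CD5L and VSIG4 had no identifier matched. Their sum ranged from 371 to 780.2 CPM at B and 308 to 680.4 at FR8 in FS, and from 449 to 579.6 at B and 279.6 to 489 at FR8 in CPF, with 1 of 6 (MARCO, −1.33 ± 0.24 on the log2 scale) called at FR8 in FS and 0 in CPF. This became 1 of 6 in each feeding group when the 6 animals were left out. The median macrophage sum in FS was 489.7 CPM at B, 408.2 at FR2, 384 at FR8 and 407.7 at FR20. In CPF it was 520.2, 358.8, 311 and 448.05 CPM. The CD14 medians over the same libraries were 974, 759.8, 694 and 649.9 CPM in FS and 1107.8, 908, 520 and 644 CPM in CPF. The macrophage sum was lowest at FR8 in both feeding groups, and CD14 at FR20 in FS and at FR8 in CPF. Most of the macrophage sum was C1QA, with means of 361.7 CPM at B and 268.3 at FR8 in FS and 335.8 and 197.6 in CPF. MRC1 moved little, from 74.08 to 71.49 in FS and from 69.1 to 73.52 in CPF. CD68 went from 40.41 to 39.91 in FS and from 37.61 to 36.64 in CPF. The remaining markers tested had lower means at FR8 in both feeding groups. The part of these cells in the CD14 result was not tested.

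Of 11 neutrophil and monocyte markers, 4 were tested, S100A8, VCAN and MPO among them, and CSF3R had 0 counts. Their sum ranged from 5.91 to 18.2 CPM at B to 9.47 to 37.9 at FR20 in FS. There 1, 1 and 3 of the 4 rose at FR2, FR8 and FR20, S100A8 at every time and VCAN and MPO at FR20. These levels were low. The FS means at B and FR20 were 0.389 and 2.26 CPM for S100A8, 2.45 and 7.97 for VCAN and 0.174 and 0.75 for MPO. MPO had 390 counts over all libraries used. In CPF none of the 4 was called. When the 6 animals were left out, 2, 1 and 3 of the 4 rose in FS at FR2, FR8 and FR20, and 1, 1 and 0 in CPF. The part of these cells in the rises of TLR2, MYD88 and NOD1 was not tested. Of 5 endothelial, 2 bile duct, 5 T and NK cell and 3 striated muscle markers tested, none was called against B in FS over all libraries. In CPF, STAB1 was lower at FR2 and FR8 and LYVE1 higher at FR8 among the endothelial markers, and CD2 and CD8A were lower at FR8 among those of T and NK cells. Of 3 erythroid markers, 1, 3 and 2 fell at FR2, FR8 and FR20 in FS, and none was called in CPF. Some of these counts differed when the 6 animals were left out. In FS 1 of the 5 endothelial markers was then lower at FR2 and 1 higher at FR8, and 0, 3 and 3 of the erythroid markers fell at FR2, FR8 and FR20. In CPF 2 of the 5 T and NK cell markers were lower at FR8 and 3 at FR20, and 1 hepatocyte marker rose and 3 fell at FR8.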

How the data were processed

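Single reads were aligned by the authors to Sscrofa10.2 with TopHat 1.5.0, and HTSeq gave the deposited values, whole-number counts per Ensembl gene that were not normalized or pooled. Base calls were made with CASAVA 1.8.2. HTSeq's overlap mode and strand setting are not given in the sources used here. Reads from overlapping or antisense genes can therefore not be told apart. All deposited columns matched a labelled library. Symbols matched 11804 of 25322 identifiers. Genome positions and sequences were not used here.

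From the counts, edgeR 4.0.16 in R 4.3.3 fitted genes with a summed CPM of at least 10, with TMM scaling and 2-sided quasi-likelihood F tests, in 1 model of the 88 libraries that held animal terms and, for FS and CPF apart, time terms. Levels at one time point were fitted with a term for feeding group alone for CPF against FS. The fits of died against lived held terms for feeding group and survival. Calls needed both an adjusted p under 0.05 and a log2 fold change of 1 or more in size. Intervals are 95%. The scripts were tested on simulated data. A share at a count of 0 allows 3 counts, which covers counting error only. Animals come from the labels, and same-animal libraries had a median residual correlation of 0.21 (94 of 126 pairs over 0.1) against −0.024 (543 of 2391) between animals, so the animal term was kept.

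The alternatives were DESeq2 1.42.0, its size factors, limma 3.58.1 voom, edgeR's likelihood ratio test, other filters, no animal term, each feeding group alone, left-out animals, and the 3 Baseline libraries without albumin put back. The 9 genes, the pathway and marker lists and the tests were chosen with earlier results of these data known. The named genes are the 9, in each of 5 comparisons up to 3 called pathway genes in each direction by log2 fold change, the 3 most abundant markers of a list (1 marker gene is not reported here), and the 2 genes most correlated with each of the 9.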

Additional observations from a re-analysis of the deposited data

Results flagged for a closer look

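In each group of 4 or 5 CPF libraries, the gap between the most extreme library and the next was set against the whole range of the group. Of 36 such groups, 5 held a library that stood apart. For normally distributed values chance alone does so in about 1 of 20 groups. The values here were CPM without a log, and the groups of the 9 genes share the same CPF libraries. The 5 can therefore not be set against that rate. Of these 5, all but 1 were of animal 13. NOD1 at FR2 was at 55.2 CPM in animal 13 and at 10.3 to 20.6 in the other animals. IRAK3 at FR8 was at 10.6 CPM in animal 13, where the other animals had 1.34 to 2.35. MYD88 and CARD10 were low in the library labelled FR20 of animal 13, at 23.6 CPM beside 54.9 to 67.5 and at 6.003 CPM beside 8.40 to 8.74. That library also correlated with the libraries of FS animal 10 in place of its own animal. TNFAIP3 at B was at 30.4 CPM in animal 8 and at 10.1 to 13.6 in the others. The cause of these values was not tested.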

How the results depend on the processing

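None of the changes called among the 9 genes turned direction under any alternative. Of the counts of genes called, 31 under other settings and 22 with 1 animal left out moved by over 1.5 times, mostly in CPF. The pairing by animal changed calls in both feeding groups. With no replicate block the fall of TNFAIP3 in FS at FR8 was lost, at −0.9997, and that of TLR2 from FR8 to FR20 in FS was gained. In CPF the calls of CARD10 at FR8, NFKBIA at FR20, and TLR2 and CD14 from FR2 to FR8 were lost. The count with no replicate block was 1 for FS FR20vFR8, 0 for CPF FR20vB and 1 for CPF FR8vFR2, and within 1.5 times of the reported count elsewhere. Adjusted p alone gave 6, 8 and 6 for FS FR2vB, FR8vB and FR20vB, 4 for FR8vFR2 and 2 for FR20vFR8. Leaving out animals 17, 19 and 21, a setting chosen after seeing the data as were the next 2, gave 2 for FS FR8vFR2 and 1 each for FS FR20vFR8 and CPF FR20vFR8. Leaving out animals 10, 11 and 13 gave 1 for FS FR20vFR8, 0 for CPF FR2vB, 3 for CPF FR8vB and 2 for CPF FR20vB. Leaving out all 6 gave 4 for FS FR20vB, 2 for FS FR8vFR2, 1 for FS FR20vFR8, 2 for CPF FR20vB and 1 for CPF FR20vFR8. Voom gave 1 for FS FR20vFR8, 2 for CPF FR20vB, 1 for CPF FR20vFR8 and 1 for died against lived at FR2. With the 3 Baseline libraries without albumin put back, the counts were 1 for CPF FR8vB, 0 for CPF FR20vB and 0 for CPF FR8vFR2. For CPF FR8vFR2, DESeq2 gave 5, CPF alone 5 and no filter 1, and CPF alone gave 1 for CPF FR20vFR8. The cause of these shifts was not tested.

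With 1 animal left out, the counts ranged from 2 to 2 for FS FR2vB, 4 to 6 for FR8vB, 2 to 3 for FR20vB, 1 to 1 for FR8vFR2 and 0 to 1 for FR20vFR8, where leaving out animal 9, 10, 11, 17, 19 or 21 gave 1. In CPF they ranged from 0 to 2 for FR2vB, 2 to 4 for FR8vB, 0 to 2 for FR20vB, 0 to 1 for FR8vFR2 and 0 to 0 for FR20vFR8. For the differences between feeding groups and between animals that died and lived they stayed at 0. The sum over both MYD88 identifiers is the same as the one used, since the other held 0 counts. IRAK3 had 3269 counts over 88 libraries, and the CPF groups held 4 or 5 animals.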
